A study of Mus musculus with 12 samples.

Results

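Levels of 6 genes of the Kv1 family of voltage-gated potassium channels are described across 12 arrays of cerebellar granule cell cultures: the pore-forming subunits Kcna1, Kcna2, Kcna4 and Kcna6, and the cytoplasmic Kvβ subunits Kcnab1 and Kcnab2. Every probe set annotated to exactly 1 of these symbols was taken, whatever its values, which gave 17 of the 45101 probe sets and 6 of 18193 genes on the array. A probe set is the group of short probes that measures 1 transcript region, and its value here is a log2 GCRMA intensity, so that a difference of 1 is a doubling. Of the 17 probe sets, 10 were tested, having a log2 value above 4 on no fewer than 3 arrays, with at least 1 for each of the 6 genes.

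All cultures came from lethargic mice (129/SvJ background), in which Cacnb4 is mutated; this gene encodes β4, a cytoplasmic subunit of voltage-gated calcium channels. Neurons were taken at postnatal day 7, exposed to lentivirus for 12 hours directly after plating, treated with the antimitotic Ara-C, and lysed after 9 days in vitro. The virus carried eGFP in the control group and the splice variant β4a, β4b or β4e in the others, with 3 arrays per group and the replicate numbers 1 to 3 in each. The labels name neither the promoter of the virus nor the share of cells it reached, and do not say whether replicates were separate cultures or animals, so p-values measure only the spread between these samples.

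Kv1 channels are tetramers of α subunits that open at small depolarisations. They sit mainly on axons, including beside the nodes, and on presynaptic terminals, where they limit repetitive firing and transmitter release. The α subunits mix within 1 channel, and Kvβ subunits dock on their cytoplasmic side, where they alter inactivation and surface transport. In the cerebellum Kcna1 and Kcna2 are best known from basket cell terminals, and mutations of Kcna1 cause episodic ataxia in humans.

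Kcna2 stood lower with each variant than with eGFP on both of its measured probe sets, and the mean levels of the Kvβ genes stood higher, but no member probe set passed the test in any comparison. With β4b, Kcna2 was 1.83-fold lower on 1440759_at and 1.66-fold lower on 1439872_at, Kcnab1 was 1.33-fold higher on its bright probe set 1448468_a_at and 1.77-fold higher on the dim 1454043_a_at, and Kcnab2 was 1.45-fold higher. Kcna1, Kcna4 and Kcna6 varied mostly with the replicate number. The mean differences of Kcna1 from eGFP had no common sign among the variants, and those of Kcna4 (0.070 to 0.61) and Kcna6 (0.043 to 0.17) were above 0 with each, with 95% intervals that included 0.

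The arrays were alike as a whole, with r from 0.967 to 0.997 between any pair of arrays, and the granule cell marker Gabra6 was at 13.80 ± 0.09 (SD, n = 3) with eGFP. The gene that the virus supplied, Cacnb4, had 3 tested probe sets, which differed from each other in direction. On 1436912_at it was at 12.09 ± 0.13 with eGFP and at 12.03 ± 0.07, 11.96 ± 0.15 and 11.98 ± 0.15 with β4a, β4b and β4e (SD, n = 3 each). On 1428928_at it was at 10.88 ± 0.46, 10.64 ± 0.30, 10.53 ± 0.20 and 10.73 ± 0.25, and on 1452089_at at 9.74 ± 0.29, 10.02 ± 0.12, 10.18 ± 0.17 and 9.88 ± 0.42, in the same order of groups (SD, n = 3 each). Whether these probes lie within the viral sequence is not given in the sources used here, so they do not check the labels. Arrays with the same number deviated together from their group means (r from 0.699 to 0.884 in 18 of 18 pairs), and each difference is therefore given with its adjusted p from limma with the replicate number as a block. In the fit without the block, the adjusted p of each member was 0.9997 or higher in each comparison. In bulk RNA, fewer cells of a type and less RNA per cell cannot be told apart.

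Kcna2, the gene of a dendrotoxin-sensitive α subunit that commonly pairs with Kcna1, was measured by 2 bright probe sets and 2 at background. On 1440759_at the log2 levels in replicates 1, 2 and 3 were 10.90, 11.00 and 10.72 with eGFP, 10.09, 10.25 and 10.35 with β4a, 9.95, 10.35 and 9.71 with β4b, and 10.55, 10.57 and 10.48 with β4e. All 9 arrays with a variant lay below all 3 eGFP arrays, the β4e arrays lay above those of both other variants, and β4a and β4b overlapped. Of all probe sets tested, 1.59% lay below eGFP without overlap with β4a, 2.00% with β4b and 0.759% with β4e. The shares for all variants at once and between variants were not counted. On 1439872_at the log2 levels were 11.31, 10.85 and 10.46 with eGFP, 10.39, 10.25 and 10.07 with β4a, 10.42, 10.20 and 9.79 with β4b, and 10.86, 10.50 and 10.42 with β4e. Here the β4a and β4b arrays lay below all eGFP arrays, whereas β4e overlapped with eGFP. The eGFP arrays themselves ran from 10.46 to 11.31, and the β4e difference in replicate 3 was -0.035.

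**Figure D1:**
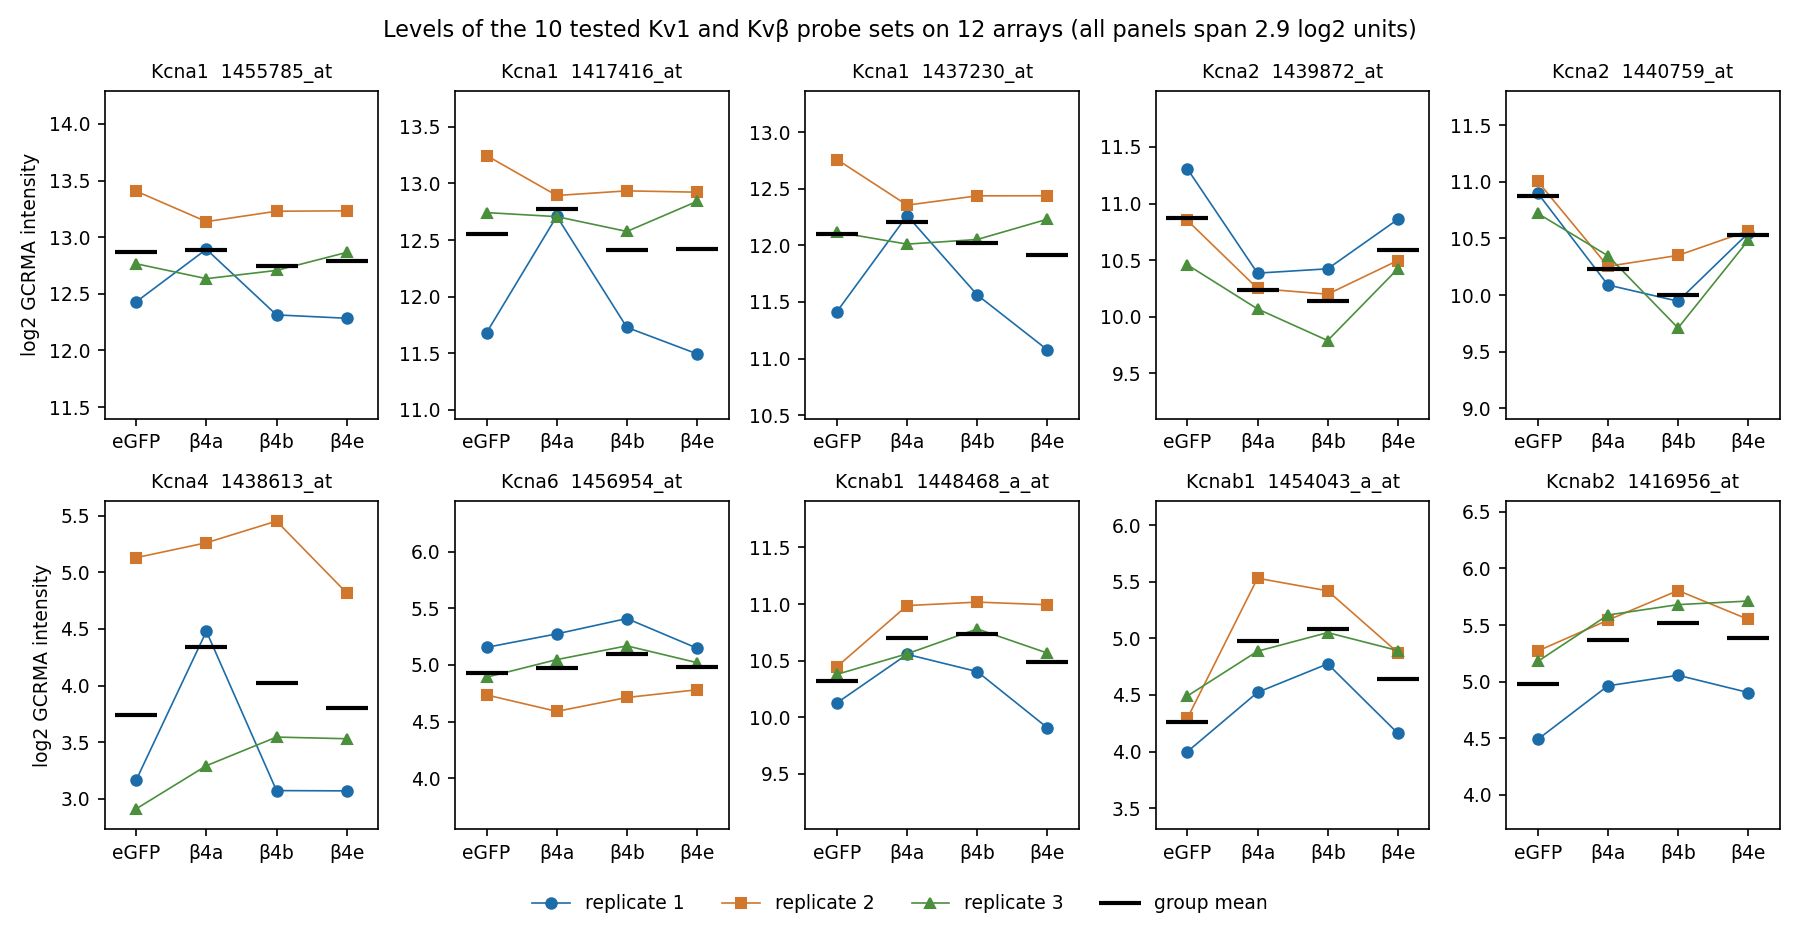
Log2 GCRMA intensity (y axis; every panel spans the same range) of the 10 tested probe sets in the 4 groups (x axis), with 1 marker per array, thin lines joining arrays of the same replicate number and a black bar at the group mean. Kcna2 1440759_at is highest in eGFP and between 9.71 and 10.57 with the variants, while the Kcna1 panels separate by replicate number.

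The group means of Kcna2 1440759_at were 10.87 ± 0.14 with eGFP, 10.53 ± 0.04 with β4e, 10.23 ± 0.13 with β4a and 10.00 ± 0.32 with β4b (SD, n = 3 each). For 1439872_at they were 10.87 ± 0.42, 10.59 ± 0.23, 10.23 ± 0.16 and 10.14 ± 0.32 (SD, n = 3 each) in the same order of groups. The order of the means was thus the same on both probe sets, and its last neighbours, β4a and β4b, did not differ beyond their spread.

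With β4b, the log2 differences of Kcna2 from eGFP within replicates 1, 2 and 3 were -0.95, -0.65 and -1.01 on 1440759_at and -0.88, -0.65 and -0.67 on 1439872_at. The mean difference was -0.87 (95% interval -1.18 to -0.57 with the block; adjusted p = 0.0550, limma) on the first. It was -0.73 (-0.99 to -0.48; adjusted p = 0.0550, limma) on the second. Both sets thus missed the threshold of 0.05 by little, and by p they ranked 38th and 40th of the 23044 probe sets tested. Over all probe sets 0% passed in this comparison without the block and 0.0130% with it, and 0 of 10 member probe sets did in either fit. Settings chosen after seeing the data moved this call. With the block and no filter on dim probe sets, Kcna2 passed on both probe sets at an adjusted p of 0.0410 (limma), and with arrays centred on their medians at 0.0486. In the 12 blocked fits that left out 1 array each, 0 member probe sets passed.

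With β4a, the differences of Kcna2 within replicates 1, 2 and 3 were -0.81, -0.75 and -0.37 on 1440759_at and -0.92, -0.60 and -0.39 on 1439872_at. Each mean difference was -0.64, a 1.56-fold lower level, with a 95% interval from -0.95 to -0.34 for the first and from -0.89 to -0.38 for the second. The adjusted p from limma with the block was 0.173 and 0.163. For this comparison too 0 of 10 member probe sets passed, beside 0% of all probe sets without the block and 0.0130% with it.

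With β4e, Kcna2 stood nearest to the control. The differences within replicates were -0.35, -0.44 and -0.24 on 1440759_at, with a mean of -0.34 (95% interval -0.65 to -0.04; adjusted p = 0.878, limma with the block). On 1439872_at they were -0.45, -0.35 and -0.035, with a mean of -0.28 (-0.54 to -0.02; adjusted p = 0.878, limma with the block). No member probe set passed for β4e, and 0% of all probe sets did in either fit. All 3 comparisons share the eGFP arrays, so that their directions are not independent of each other.

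The variants were also compared with each other, in the same fit of all 12 arrays, so that the eGFP arrays enter the estimate of spread but not the differences. Kcna2 was lower with β4b than with β4e by a log2 difference of -0.53 on 1440759_at (-0.60, -0.22 and -0.77 in replicates 1, 2 and 3) and of -0.46 on 1439872_at (-0.44, -0.30 and -0.63). Both had an adjusted p of 0.663 (limma with the block), and 0 of 10 member probe sets passed, beside 0% of all. Between β4a and β4e the difference of Kcna2 was -0.30 on 1440759_at and -0.36 on 1439872_at (adjusted p = 0.759 for each, limma with the block; 0% of all probe sets passed). Between β4a and β4b it was 0.23 with a 95% interval from -0.08 to 0.53, and 0.10 with an interval from -0.16 to 0.35 (adjusted p = 0.997 for each, limma with the block; 0% of all passed).

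**Figure D2:**
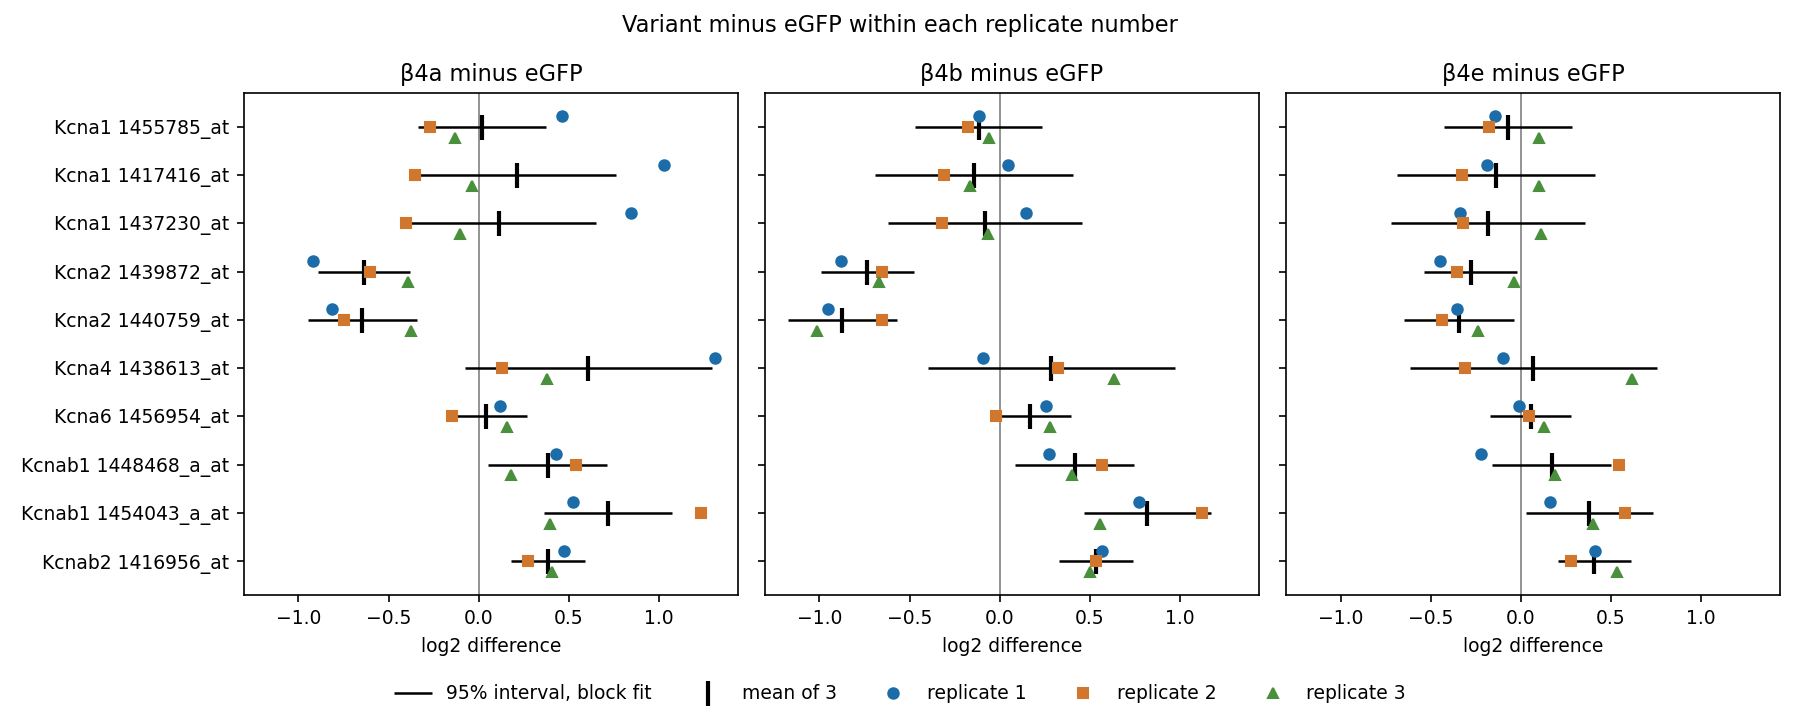
Log2 difference of each variant from eGFP (x axis) for the 10 tested probe sets (y axis), with 1 marker per replicate number, a vertical tick at the mean of 3 and a horizontal line for the 95% interval of limma with the replicate block. All Kcna2 markers lie left of 0, from -1.01 to -0.035, and all Kcnab2 markers lie right of 0, from 0.27 to 0.57.

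The other Kcna2 probe sets gave no reading: 1422197_at lay between 3.03 and 3.52 and 1457911_at between 2.67 and 3.11 on the log2 scale, below 4 on all 12 arrays. Which transcript regions the 4 probe sets cover is not given in the sources used here. After the mean of each replicate number was taken off, the measured pair followed each other over the 12 arrays with r = 0.96, against 0.77 as deposited; the arrays share groups and probes of 1 gene.

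Signs and overlap over the 10 tested probe sets stood as follows, beside all probe sets tested. With β4a, all 3 within-replicate differences were higher for 4 (19.1% of all) and lower for 2 (16.4%), and the arrays of the groups did not overlap for 2 that were higher (2.87%) and 2 that were lower (1.59%). With β4b, all 3 differences were higher for 3 (22.9%) and lower for 3 (18.1%), and arrays did not overlap for 1 that was higher (3.64%) and 2 that were lower (2.00%). With β4e, the differences were higher for 2 (15.3%) and lower for 2 (12.4%), and arrays did not overlap for 0 that were higher (1.40%) and 1 that was lower (0.759%). The lower ones without overlap were Kcna2 in each comparison, and the higher ones were Kcnab1.

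Kcnab1 encodes the Kvβ subunit that gives delayed rectifiers a fast inactivation, through an N-terminal stretch that plugs the open pore. Its dimmer probe set, 1454043_a_at, read 4.00, 4.29 and 4.49 with eGFP, 4.52, 5.53 and 4.89 with β4a, 4.77, 5.42 and 5.05 with β4b, and 4.16, 4.87 and 4.89 with β4e on the log2 scale. The β4a and β4b arrays lay above all eGFP arrays, and β4e overlapped with eGFP. The mean differences from eGFP were 0.72 with β4a (95% interval 0.36 to 1.07), 0.82 with β4b (0.47 to 1.17) and 0.38 with β4e (0.03 to 0.74). The adjusted p values were 0.173, 0.0799 and 0.878 (limma with the block). With eGFP this probe set was close to the filter level of 4, where differences are not exact.

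The brighter Kcnab1 probe set, 1448468_a_at, gave smaller differences. It read 10.13, 10.45 and 10.38 with eGFP, 10.56, 10.99 and 10.56 with β4a, 10.40, 11.02 and 10.78 with β4b, and 9.91, 10.99 and 10.57 with β4e. The β4a arrays lay above all eGFP arrays, while β4b and β4e overlapped with eGFP, and replicate 1 with β4e was the lowest array of all. The mean differences were 0.38, 0.42 and 0.17 (adjusted p = 0.275, 0.177 and 0.927, limma with the block). Without β4e replicate 2, the difference of β4e from eGFP in the fit without the block turned to -0.081.

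Kcnab2 encodes a Kvβ subunit related to aldo-keto reductases that aids the transport of Kv1 channels to the axon. Its probe set 1416956_at read 4.49, 5.27 and 5.18 with eGFP, 4.96, 5.54 and 5.59 with β4a, 5.06, 5.81 and 5.68 with β4b, and 4.90, 5.55 and 5.71 with β4e on the log2 scale. Replicate 1 was the lowest array in every group, so all groups overlapped, yet within each replicate number every variant stood above eGFP. The differences in replicates 1, 2 and 3 were 0.47, 0.27 and 0.41 with β4a, 0.57, 0.53 and 0.50 with β4b, and 0.41, 0.28 and 0.53 with β4e. The means were 0.39 (95% interval 0.18 to 0.59), 0.53 (0.33 to 0.74) and 0.41 (0.20 to 0.61), with adjusted p values of 0.173, 0.0629 and 0.873 (limma with the block). In a setting chosen after seeing the data, the block with no filter on dim probe sets, 75 probe sets passed with β4b. Among them was the difference of Kcnab2, at an adjusted p of 0.0480 (limma). It did not pass with the block and quantile normalization, median centring or a filter at 5. The second probe set, 1425885_a_at, stayed below 4 on all arrays, between 3.07 and 3.67.

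Between the variants, the largest difference of a Kvβ probe set was that of Kcnab1 1454043_a_at from β4e to β4b. It was 0.44 (95% interval 0.08 to 0.79; adjusted p = 0.675, limma with the block), with 0.61, 0.54 and 0.16 in replicates 1, 2 and 3. This probe set differed by 0.38 between β4e and eGFP. For Kcnab1 1448468_a_at the difference from β4e to β4b was 0.24 (-0.08 to 0.57; adjusted p = 0.769, limma with the block). For Kcnab2 the same difference was 0.13 (-0.08 to 0.33; adjusted p = 0.803, limma with the block), and from β4e to β4a it was -0.024 (-0.23 to 0.18). The mean of the 3 variants differed from eGFP by -0.62 and -0.55 for Kcna2 1440759_at and 1439872_at. It differed by 0.64 and 0.32 for Kcnab1 1454043_a_at and 1448468_a_at, and by 0.44 for Kcnab2. Adjusted p values were 0.0900, 0.0861, 0.103, 0.219 and 0.0852 (limma with the block). Of the member probe sets, 0 of 10 passed, beside 0% of all without the block and 0.0217% with it.

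The promoters of 3 genes are shown, chosen for their differences from eGFP although no member probe set passed. Each is given, from RefSeq (GRCm38.p6), as the 250 bases before the first listed start, 5′ to 3′ on the gene's strand. Capitals mark matches on either strand to a CRE half-site (TGACG), the core site of CREB, to a CCAAT box (CCAAT) or to a GC box (GGGCGG). Kcna2 lies at chr3:107101317-107101566 on the plus strand, Kcnab1 at chr3:64948962-64949211 on the plus strand and Kcnab2 at chr4:152477550-152477799 on the minus strand.
Kcna2: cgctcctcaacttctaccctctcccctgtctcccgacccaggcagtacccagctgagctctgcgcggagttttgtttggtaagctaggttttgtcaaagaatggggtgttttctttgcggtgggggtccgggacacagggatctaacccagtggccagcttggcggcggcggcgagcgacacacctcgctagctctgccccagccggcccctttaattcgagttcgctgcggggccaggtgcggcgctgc
Kcnab1: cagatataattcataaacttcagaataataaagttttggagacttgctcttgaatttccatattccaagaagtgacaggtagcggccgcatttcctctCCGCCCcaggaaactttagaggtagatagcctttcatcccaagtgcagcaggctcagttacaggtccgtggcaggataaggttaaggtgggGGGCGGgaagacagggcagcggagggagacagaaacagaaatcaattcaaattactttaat
Kcnab2: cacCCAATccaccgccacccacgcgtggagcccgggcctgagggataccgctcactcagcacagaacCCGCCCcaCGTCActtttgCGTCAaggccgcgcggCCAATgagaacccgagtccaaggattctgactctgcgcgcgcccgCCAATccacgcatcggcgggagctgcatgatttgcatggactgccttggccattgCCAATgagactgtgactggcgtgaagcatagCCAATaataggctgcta
The Kcna2 window held none of the 3 motifs, the Kcnab1 window held 2 GC boxes, and the Kcnab2 window held 2 CRE half-sites, 5 CCAAT boxes and 1 GC box. Of all 32851 windows of this length in the table, 17.8% held a CRE half-site, 33.8% a CCAAT box and 32.7% a GC box. The table matched 5 of the 6 genes. Of those not shown, the Kcna4 window held 1 GC box and the Kcna6 window 1 CRE half-site. Kcnab1 and Kcnab2 have 3 starts each, and the windows at their other starts held none of the 3 motifs. Which start is used in these cells was not measured. A match is a description of the letters, not a site in use.

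Kcna1, the gene of the α subunit of episodic ataxia, was bright on 3 probe sets and varied with the replicate number. On 1417416_at the log2 levels in replicates 1, 2 and 3 were 11.68, 13.25 and 12.74 with eGFP, 12.71, 12.89 and 12.71 with β4a, 11.73, 12.93 and 12.58 with β4b, and 11.50, 12.92 and 12.84 with β4e. Replicate 1 was low in 3 groups but not with β4a, and all groups overlapped. The differences of β4a from eGFP were 1.03, -0.35 and -0.035 in replicates 1, 2 and 3, so that a mean of 0.21 (95% interval -0.34 to 0.76; adjusted p = 0.715, limma with the block) rested on replicate 1. For β4b and β4e the means were -0.14 (-0.69 to 0.41) and -0.14 (-0.69 to 0.41), with adjusted p values of 0.788 and 0.977 (limma with the block).

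The other bright Kcna1 probe sets had the same shape. In replicate 1 the difference of β4a from eGFP was 0.85 on 1437230_at and 0.46 on 1455785_at, and in replicates 2 and 3 it was negative on both. Their mean differences lay between -0.18 and 0.11 over the 3 variants. With replicate number 1 left out of every group, the β4a difference of 1417416_at was -0.19 with the block. The remaining Kcna1 probe set, 1442413_at, lay between 2.62 and 2.84 and was not tested.

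Kcna4, the α subunit of a fast-inactivating A-type current, was above 4 on 5 of 12 arrays. Probe set 1438613_at read 3.17, 5.13 and 2.91 with eGFP, 4.48, 5.26 and 3.29 with β4a, 3.07, 5.45 and 3.55 with β4b, and 3.07, 4.82 and 3.53 with β4e. All 4 replicate 2 arrays were above 4, and the fifth was β4a replicate 1, which stood 1.31 above eGFP replicate 1. The mean differences from eGFP were 0.61, 0.29 and 0.070, with 95% intervals from -0.08 to 1.29, from -0.40 to 0.97 and from -0.61 to 0.76 (adjusted p = 0.373, 0.649 and 0.992, limma with the block). Differences against the 2 eGFP arrays under 4 are against values near background. Probe set 1422255_at stayed under 4 on all arrays, at 3.63 or lower.

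Kcna6, the gene of another dendrotoxin-sensitive α subunit, was dim and ordered by replicate number. Probe set 1456954_at read 5.16, 4.74 and 4.89 with eGFP, 5.27, 4.59 and 5.05 with β4a, 5.41, 4.71 and 5.17 with β4b, and 5.15, 4.78 and 5.02 with β4e. Replicate 1 was highest and replicate 2 lowest in each group, and all groups overlapped. The mean differences from eGFP were 0.043, 0.17 and 0.056 (adjusted p = 0.873, 0.380 and 0.977, limma with the block), and the 95% intervals reached from -0.18 to 0.39 in all. Probe sets 1441049_at and 1421568_at were under 4 on all arrays.

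As a description, the share of variation that lay between groups set Kcna2 1440759_at apart from the other tested member probe sets, including Kcna2 1439872_at. Of the sum of squares of Kcna2 1440759_at over the 12 arrays, 81.7% lay between groups and 7.19% between replicate numbers, while the medians over all tested probe sets were 12.0% and 64.2%. For Kcna2 1439872_at the shares were 58.6% and 35.6%, and for Kcnab1 1454043_a_at 50.8% and 38.2%. Kcna1 had between 2.41% and 6.98% between groups, and Kcna6 had 85.1% between replicate numbers. For Kcnab2 71.1% lay between replicate numbers and 27.0% between groups, which left 1.88%. A difference among replicate numbers passed for 9 of the 10 member probe sets, against 65.2% of all probe sets. The exception was Kcna2 1440759_at, at an adjusted p of 0.218 (limma's F test). A difference among the 4 groups passed for none of the members, and for 0% of all probe sets with or without the block.

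**Figure D3:**
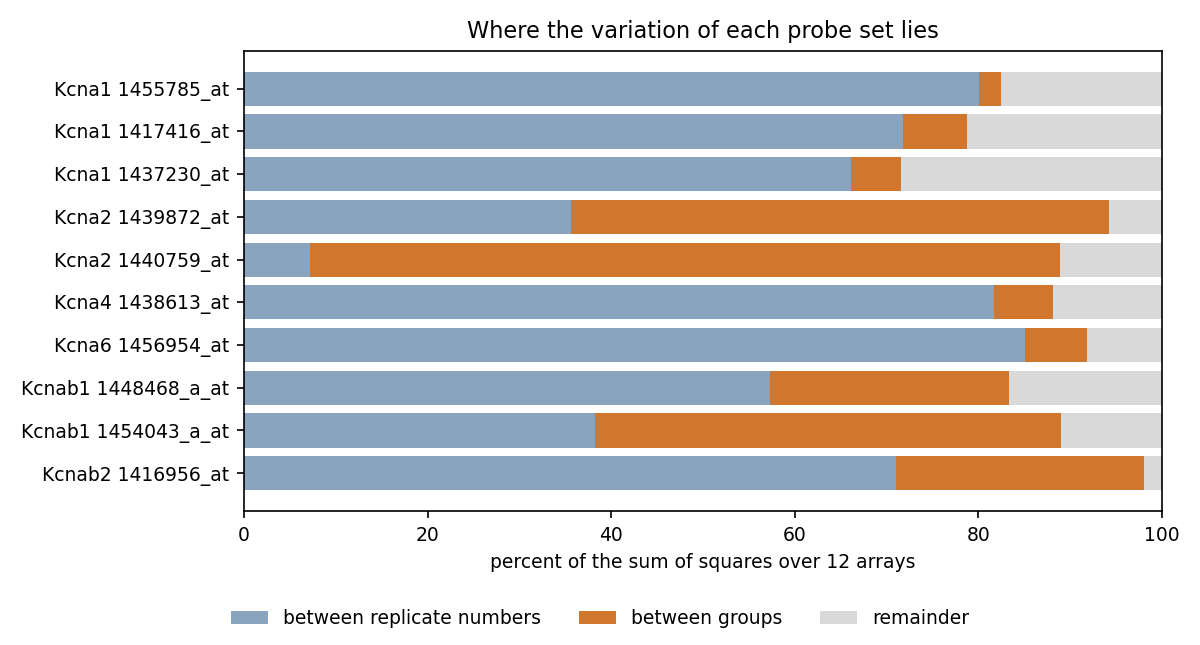
Percent of the sum of squares over 12 arrays (x axis) that lies between replicate numbers, between groups and in the remainder, for each of the 10 tested probe sets (y axis). Kcna2 1440759_at has the widest between-group share, at 81.7%, and Kcna6 the widest replicate share, at 85.1%.

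Of the other Kv1 and Kvβ genes, only Kcna7 was tested (1450490_at), and it differed from eGFP by -0.023, -0.11 and 0.0088 with β4a, β4b and β4e. Kcna3, Kcna5 and Kcnab3 were below the filter. Among proteins that bind or place Kv1 channels, 15 of 18 listed genes were tested and 0 passed in any comparison with eGFP, with or without the block. Their median difference was 0.0053 with β4a, -0.027 with β4b and 0.060 with β4e, beside medians of 0.020, 0.027 and 0.011 over all probe sets. Among 18 other delayed rectifier genes of the Kv families, 4 were tested (Kcnc1, Kcnc4, Kcnq3 and Kcns2), 0 passed, and the differences from eGFP ran from -0.21 to 0.32.

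The partners with the smallest p with β4b stood in both directions. Adam23, a receptor for the secreted Lgi proteins, was higher by 0.79 with β4b (0.41, 0.9996 and 0.96 in replicates 1, 2 and 3; adjusted p = 0.0924, limma with the block). Lgi2, one of those ligands, was higher by 0.68 (0.40, 1.14 and 0.50; adjusted p = 0.104, limma with the block). Dlg2, a membrane scaffold that binds Kv1 tails, was lower by a difference of -0.63 (-0.23, -0.81 and -0.85; adjusted p = 0.123, limma with the block). Cntnap2, which clusters Kv1 channels beside the nodes of axons, was lower by a difference of -0.52 (-0.87, -0.54 and -0.17; adjusted p = 0.139, limma with the block). With β4a, Adam23 differed by 0.66, Cntnap2 by -0.55, Lgi2 by 0.54 and the postsynaptic scaffold Dlg4 by 0.40. Their adjusted p values were 0.194, 0.209, 0.224 and 0.237 (limma with the block).

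Other gene groups differed between the same arrays, and their part in the differences above was not tested. Of 12 astrocyte and Bergmann glia markers, 12 had a higher mean with each variant than with eGFP and 0 passed. Their median differences in replicates 1, 2 and 3 were -0.32, 0.58 and 1.01 with β4a, -0.28, 0.91 and 1.36 with β4b, and -0.062, 0.91 and 0.45 with β4e. The medians were thus below 0 in replicate 1 and above 0 in replicates 2 and 3 with each variant. The summed level of these astrocyte markers (log2) ran from 13.98 to 14.86 with eGFP, from 14.42 to 15.26 with β4a, from 14.59 to 15.54 with β4b and from 14.68 to 14.79 with β4e.

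Activity-regulated genes, which neurons switch on within minutes of firing, stood apart in some replicates. Over 19 tested genes the median differences in replicates 1, 2 and 3 were 3.15, 2.13 and -0.060 with β4a, 2.69, 0.93 and -0.33 with β4b, and -0.12, 0.30 and -0.27 with β4e; 0 passed. With β4a, Kcna2 had its smallest difference in replicate 3 on both probe sets (-0.37 and -0.39). With β4b, replicate 3 held the largest difference of 1440759_at (-1.01) and -0.67 on 1439872_at. Kcna1 1417416_at and Kcna4 differed by 1.03 and 1.31 in β4a replicate 1, by -0.35 and 0.13 in β4a replicate 2, and by 0.046 and -0.094 in β4b replicate 1.

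Of 6 tested interneuron markers, 1 was higher and 5 lower with β4a and with β4b, and 2 higher and 4 lower with β4e, with medians of -0.18, -0.20 and -0.015; 0 passed, and Sst and Slc6a5 were below the filter. The summed level of these markers (log2) ran from 12.85 to 13.72 with eGFP, from 12.51 to 13.83 with β4a, from 12.74 to 13.80 with β4b and from 12.72 to 13.96 with β4e. Of 14 granule cell markers, 11 were lower with β4a, 10 with β4b and 7 with β4e, with medians of -0.11, -0.080 and -0.027; 0 passed. Their summed level (log2) ran from 16.88 to 16.97 with eGFP, from 16.75 to 16.85 with β4a, from 16.81 to 16.89 with β4b and from 16.85 to 16.92 with β4e. Of 10 oligodendrocyte lineage markers, 8 were higher with β4a, 9 with β4b and 9 with β4e, with medians of 0.068, 0.22 and 0.12; 0 passed. The summed level of these (log2) ran from 14.25 to 14.83 with eGFP, from 14.40 to 14.87 with β4a, from 14.44 to 14.89 with β4b and from 14.20 to 14.84 with β4e. Of 7 tested microglia markers, 1, 5 and 4 were higher, and of 7 fibroblast markers, 4, 5 and 5, with β4a, β4b and β4e; 0 passed. Of 7 Purkinje cell markers, 3 were tested, and 2 of them were higher and 1 lower with each variant. Their medians were 0.18, 0.21 and 0.18 with β4a, β4b and β4e, and 0 passed. Their summed level (log2) ran from 8.03 to 12.08 with eGFP and from 8.31 to 11.035 with β4a. It ran from 7.90 to 11.14 with β4b and from 8.70 to 11.69 with β4e. The Purkinje cell genes Pcp2, Slc1a6, Itpka and Ppp1r17 were below the filter.

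**Figure D4:**
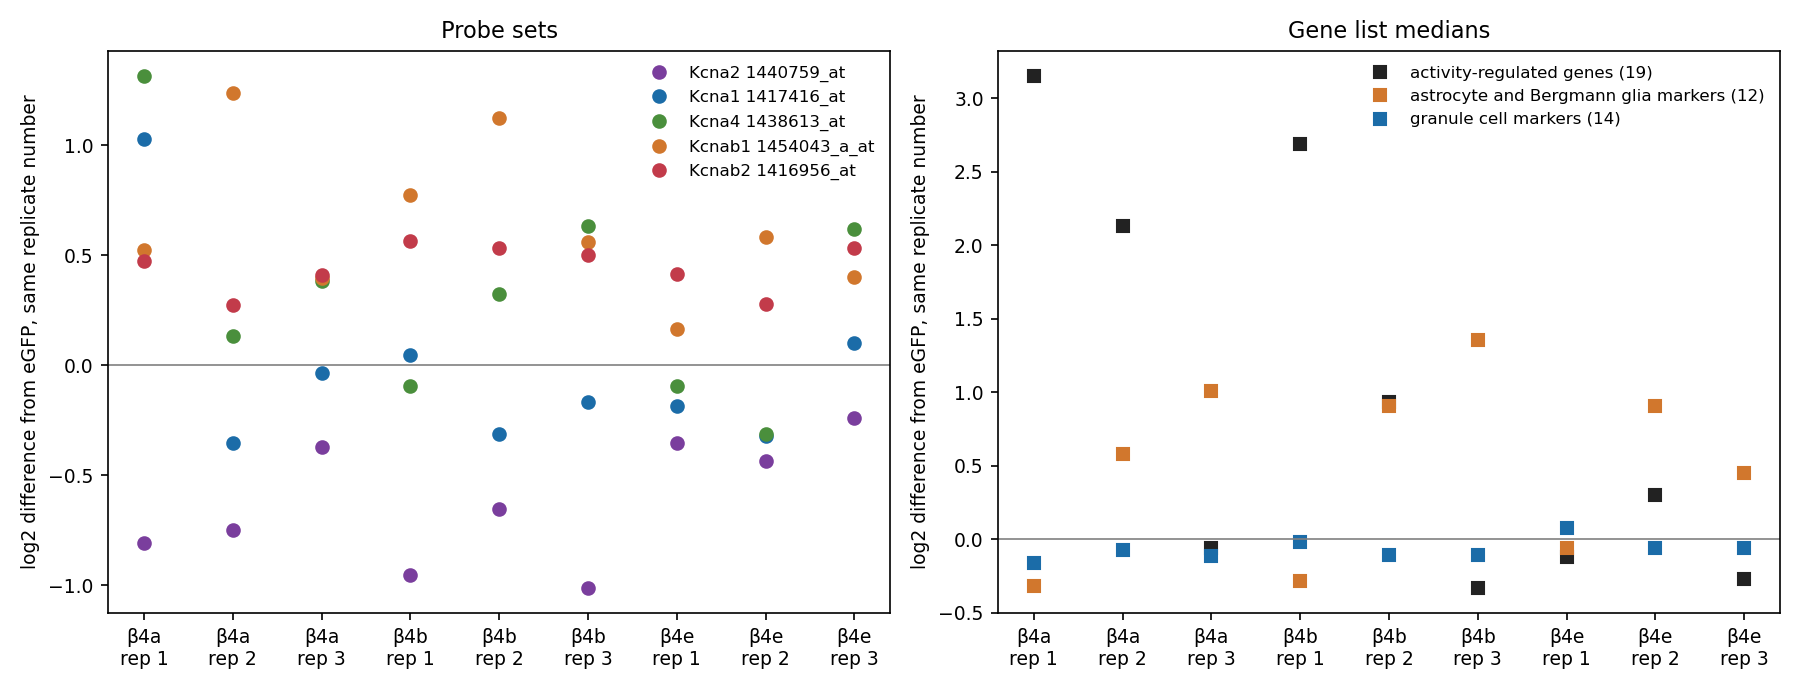
Log2 difference from the eGFP array of the same replicate number (y axis) for 9 arrays with a variant (x axis), with 5 member probe sets on the left and the medians of 3 gene lists on the right, on separate scales. Kcna2 is below 0 on all 9 arrays, the activity-regulated median runs from -0.33 to 3.15, and the granule cell median stays between -0.16 and 0.076.

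Genes with the most similar profile were found for the brightest probe set of each member over the 12 arrays, after the mean of each replicate number was taken off. Kcna2 1439872_at was most like Nav1 (r = 0.97), Fbxl16 (0.97) and Mtrex (0.97). Nav1 differed from eGFP by -0.38, -0.52 and -0.19 with β4a, β4b and β4e. In the same order, Fbxl16 differed by -0.10, -0.11 and -0.048, and Mtrex by -0.84, -0.91 and -0.40. Kcnab1 1448468_a_at was most like Dusp6 (0.97), Epha5 (0.96) and Endod1 (0.96). With β4a, β4b and β4e, Dusp6 differed from eGFP by 1.33, 1.18 and 0.41. Epha5 differed by 0.63, 0.62 and 0.18, and Endod1 by 0.74, 0.75 and 0.23. Kcnab2 was most like Pnkd (0.96), Ppa2 (0.95) and Pmaip1 (0.93), Kcna1 1455785_at like Scyl2 (0.98), Zfp142 (0.97) and Ptch1 (0.97), Kcna4 like Dusp7 (0.98), Tnfrsf12a (0.95) and Tox4 (0.95), and Kcna6 like Prkag1 (0.90), Hacd4 (0.89) and B4galt7 (0.89). These r values were chosen as the highest over all tested probe sets with 1 gene, and the arrays share groups.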

How the data were processed

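RNA of 12 samples was hybridised to Affymetrix 3′ expression arrays after labelling of 500 ng per sample, per the labels' protocols. The deposited values are log2 intensities that the authors made with GCRMA, per the submitters' processing notes; its version and settings are not given in the sources used here. They were used as deposited. GCRMA normalizes between arrays, so a shift of most genes would not be seen, and low values carry little information. Of 45101 probe sets, 64 controls were left out, 34945 had 1 gene symbol, 932 several and 9160 none. The 23044 probe sets above 4 (log2) in at least 3 arrays were fitted together in limma (version 3.58.1, R 4.3.3; lmFit, then eBayes) with 8 residual degrees of freedom, or 6 where replicate numbers entered as a block. P-values are two-sided and Benjamini-Hochberg adjusted over all tested probe sets, with a threshold of 0.05. The code was tested on simulated data.

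Replicate numbers come from the titles. Arrays of 1 number deviated together from their group means (r of 0.699 to 0.884 in 18 of 18 pairs; other pairs -0.741 to 0.146), so blocked values are given. Gene lists use the brightest probe set per gene. Named genes are all members, the other Kv1 and Kvβ genes, up to 4 genes per list with the smallest blocked p, and the 3 most similar genes per member. The members and lists were chosen with earlier results of these data known. Alternatives were other filters, other scalings, the block and leaving out arrays. The number of arrays limits the precision.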

Additional observations from a re-analysis of the deposited data

How the results depend on the processing

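Without the replicate block, 0 probe sets passed in each comparison under limma, and other filters and scalings kept the member count at 0. In that fit 363, 607 and 83 had an unadjusted p under 0.05 for β4a, β4b and β4e against eGFP. With the block, 3535, 4447 and 1277 did (limma). After adjustment with the block, 3 passed for β4a, 3 for β4b and 5 for the mean of the variants. The following were chosen after seeing the data. With the block and no filter, quantile normalization, median centring or a filter at 5, the counts were 3, 1, 3 and 3 for β4a, 75, 3, 53 and 24 for β4b, and 17, 1, 5 and 5 for the mean of the variants. For β4b, 3 member probe sets passed with the block and no filter, and 2 with the block and median centring. With the block and quantile normalization or a filter at 5, none did. Over fits that left out 1 array, or 1 replicate number with the block, the count of all probe sets ran from 0 to 2 for β4a, 0 to 61 for β4b (61 without eGFP replicate 1), 0 to 1 for β4a minus β4e and 0 to 3 for the mean of the variants.

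The differences of Kcna2 and Kcnab2 and of Kcnab1 1454043_a_at from eGFP kept their sign in all of these fits. Other differences turned. For β4a against eGFP the ranges were -0.22 to 0.56 (Kcna1 1417416_at), -0.25 to 0.44 (Kcna1 1437230_at), -0.21 to 0.29 (Kcna1 1455785_at) and -0.11 to 0.23 (Kcna6 1456954_at). For β4b they were -0.58 to 0.20, -0.42 to 0.25 and -0.36 to 0.15 for Kcna1 1417416_at, 1437230_at and 1455785_at, and -0.43 to 0.98 for Kcna4 1438613_at. For β4e they were -0.57 to 0.33, -0.52 to 0.24 and -0.29 to 0.20 for Kcna1, -0.44 to 0.77 for Kcna4, -0.040 to 0.17 for Kcna6 and -0.081 to 0.46 for Kcnab1 1448468_a_at. Between β4a and β4b they were -0.38 to 0.052 for Kcnab2 1416956_at, -0.077 to 0.24 for Kcna2 1439872_at, -0.20 to 0.11 for Kcnab1 1448468_a_at and -0.38 to 0.13 for Kcnab1 1454043_a_at. Between β4a and β4e they were -0.27 to 0.18 for Kcnab2 and -0.079 to 0.46 for Kcnab1 1448468_a_at, and between β4b and β4e -0.12 to 0.35 and -0.047 to 0.50. The cause was not tested. With 3 arrays per group, signals near 4 (Kcna4, Kcnab1 1454043_a_at) limit what can be read.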
